A study of Mus musculus with 18 samples.

Results

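The prostaglandin and leukotriene pathway was followed through 10 genes in J774 cells, a mouse macrophage line exposed to talc, titanium dioxide (TiO2) or no particles, with or without estradiol. The genes were taken from a list of names, chosen with earlier results of these data known, and all 10 were among the 23102 genes measured. They are the phospholipase Pla2g4a, the cyclooxygenases Ptgs1 and Ptgs2, the synthases Ptges, Hpgds and Tbxas1, the degrading enzyme Hpgd, the receptors Ptger2 and Ptger4, and the lipoxygenase Alox5.

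The study asked what talc does to these cells. Total RNA was read on 18 Affymetrix arrays, in 6 groups of 3. Without estradiol these were vehicle, talc and TiO2, and with it estradiol alone, talc plus estradiol and TiO2 plus estradiol. Particles were given at 10 µg per well of 24-well plates and 17-β estradiol at 2 µg/mL, and RNA was taken after 24 h. All groups were grown in serum-containing medium without phenol red, a dye with estrogenic activity, and all come from a single immortalised cell line. Whether the 3 arrays of a group are separate cultures is not given in the labels, so the p-values cover the spread among these samples alone, and that spread may be technical. Array numbers run through the groups in order; whether that is the order of processing is not stated, and any such order cannot be told apart from group.

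Prostaglandins and leukotrienes are short-lived lipid signals made from arachidonic acid. Cytosolic phospholipase A2 frees the acid from membranes, cyclooxygenases turn it into prostaglandin H2, and terminal synthases turn that into prostaglandin E2, prostaglandin D2 or thromboxane, while 5-lipoxygenase begins the leukotriene branch. Macrophages are a main source of both families in inflamed tissue, where Ptgs1 is usually expressed at all times and Ptgs2 is induced by inflammatory stimuli.

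Gene values are mean log2 intensities over the probe sets of a gene, so a difference of 1 is a doubling. The test was limma, fitted to all 18 arrays, and a gene is said to pass where its p, adjusted by Benjamini-Hochberg for the 23102 genes of a comparison, was under 0.05. The median intensity of an array lay between 45.6 and 48 units, lowest in TiO2 plus estradiol replicate 3, and arrays of a group correlated across genes at 0.987 to 0.992. The 7 macrophage markers listed stood at percentiles 67.9 (Adgre1) to 99.9 (Cd68) of all genes by signal. Such a percentile ranks array signal, which also depends on the probes, and does not order genes by transcript number.

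With talc, the cyclooxygenases moved in opposite directions. Ptgs2 rose 3.69-fold over vehicle and Ptgs1 fell by 0.68 log2 units, a 1.6-fold lower level. The prostaglandin E2 receptor gene Ptger2 rose 1.73-fold, while Hpgds and Alox5 fell. Thus 2 of the 10 genes rose and 3 fell, beside 8.46% of all genes that passed in this comparison, 3.94% higher and 4.52% lower. The same 5 genes passed in the same directions when talc plus estradiol was set against estradiol, where 7.13% of all genes passed, 4.13% higher and 3% lower. These 5 stood at percentiles 56.2 (Ptger2) to 95.6 (Ptgs1) by signal. When genes above the median level were fitted and adjusted alone, 2764 and 2483 of 11551 genes passed in the 2 comparisons. That share was larger, but it comes from another fit with fewer tests and is not like for like with those above. The median change of the 10 genes was 0.19 and 0.08 log2 units in these comparisons, and that of all genes 0.02 and -0.0037. The comparisons do not share arrays, but both use the spread of a gene estimated over all 18 arrays, so their calls are not independent.

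The promoter windows of both cyclooxygenase genes and of Ptger2, the other gene that rose, are shown because the isoenzymes moved apart and the risers moved together. Each runs from 250 bases before to 50 bases after a RefSeq transcript start (GRCm38.p6, plus strand) and is written 5′ to 3′. For Ptgs2 and Ptger2 that start is the first base of the gene. The Ptgs1 window lies inside the gene (36216742 to 36258593), at an internal start, so the cyclooxygenase windows are not at like positions. The windows are chr1:150099781-150100080 for Ptgs2, chr2:36230176-36230475 for Ptgs1 and chr14:44987861-44988160 for Ptger2, and capitals mark matches to the motifs searched.
Ptgs2: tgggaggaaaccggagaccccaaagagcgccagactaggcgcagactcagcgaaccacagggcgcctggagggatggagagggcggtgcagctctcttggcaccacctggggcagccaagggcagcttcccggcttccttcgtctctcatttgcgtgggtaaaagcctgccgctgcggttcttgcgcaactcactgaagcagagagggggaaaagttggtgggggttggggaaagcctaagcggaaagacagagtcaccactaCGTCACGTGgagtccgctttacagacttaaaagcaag
Ptgs1: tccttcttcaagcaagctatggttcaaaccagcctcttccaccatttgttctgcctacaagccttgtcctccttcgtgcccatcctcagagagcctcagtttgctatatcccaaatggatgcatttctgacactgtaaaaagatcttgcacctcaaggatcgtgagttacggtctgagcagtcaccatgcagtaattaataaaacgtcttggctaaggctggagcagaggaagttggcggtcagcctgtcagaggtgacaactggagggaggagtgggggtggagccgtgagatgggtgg
Ptger2: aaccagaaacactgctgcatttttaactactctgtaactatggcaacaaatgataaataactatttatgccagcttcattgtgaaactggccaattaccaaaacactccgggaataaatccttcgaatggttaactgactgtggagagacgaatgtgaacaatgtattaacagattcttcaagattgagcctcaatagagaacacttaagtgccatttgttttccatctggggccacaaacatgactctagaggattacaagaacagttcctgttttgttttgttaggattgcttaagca
The motifs were the short cAMP response element (CRE) TGACG, the AP-1 site TGANTCA, the TATA box TATAAA, the E box CACGTG and the NF-kB motif, on both strands. The Ptgs2 window held a CRE on the minus strand, at bases 14 to 18 counted from the start, which overlaps an E box at bases 17 to 22. The Ptgs1 and Ptger2 windows held none of the motifs. Of all 32851 windows of this length, 20.8% held the CRE, 7.81% the AP-1 site, 13.6% the TATA box, 7.15% the E box and 8.46% the NF-kB motif. Among the windows of the other genes, those of Hpgds, Alox5, Ptges and Ptger4 also held none; Hpgd held a TATA box at bases 5 to 10, Tbxas1 an AP-1 site and a TATA box, and Pla2g4a a TATA box in 1 of its windows. The windows of Ptges, Hpgds and Tbxas1, and the Pla2g4a window with the TATA box, also lie inside their genes. A match describes letters and not a bound site.

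Ptgs2 (chromosome 1, 150100031 to 150108234), the inducible cyclooxygenase, had the widest range of group means among the 10 genes, 2.41 log2 units. Its log2 level was 5.31, 5.37 and 5.68 in the vehicle arrays and 7.19, 7.24 and 7.58 in the talc arrays. With estradiol it was 4.66, 4.94 and 5.35, and with talc plus estradiol 7.44, 7.35 and 7.39. In TiO2 arrays it was 4.93, 5.32 and 5.54, and with TiO2 plus estradiol 5.67, 5.08 and 5.05. All 6 arrays of talc-treated cells lay above the 12 others, and the 4 groups without talc overlapped each other. The log2 change with talc was 1.88 ± 0.20 (SE; adjusted p = 1.98e-05, limma) without estradiol and 2.41 ± 0.20 (adjusted p = 3.87e-06) with it. By size of change Ptgs2 ranked 8 and 2 of all genes.

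Ptgs1 (chromosome 2, 36216742 to 36258593), the cyclooxygenase of resting cells, was at 9.69, 9.69 and 9.47 in vehicle arrays and at 9.02, 8.96 and 8.84 with talc. It was at 9.85, 9.75 and 9.66 with estradiol and at 8.91, 9.12 and 9.08 with talc plus estradiol. Talc arrays lay below their controls in both arms without overlap. The log2 changes were -0.68 ± 0.12 (adjusted p = 0.0014) and -0.72 ± 0.12 (adjusted p = 0.00128). Levels were 9.89, 9.76 and 9.66 with TiO2 and 9.62, 9.54 and 9.21 with TiO2 plus estradiol, the last of these from the dimmest array of the series. The TiO2 plus estradiol arrays also lay below the estradiol and the TiO2 arrays without overlap, while TiO2 overlapped vehicle.

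**Figure D1:**
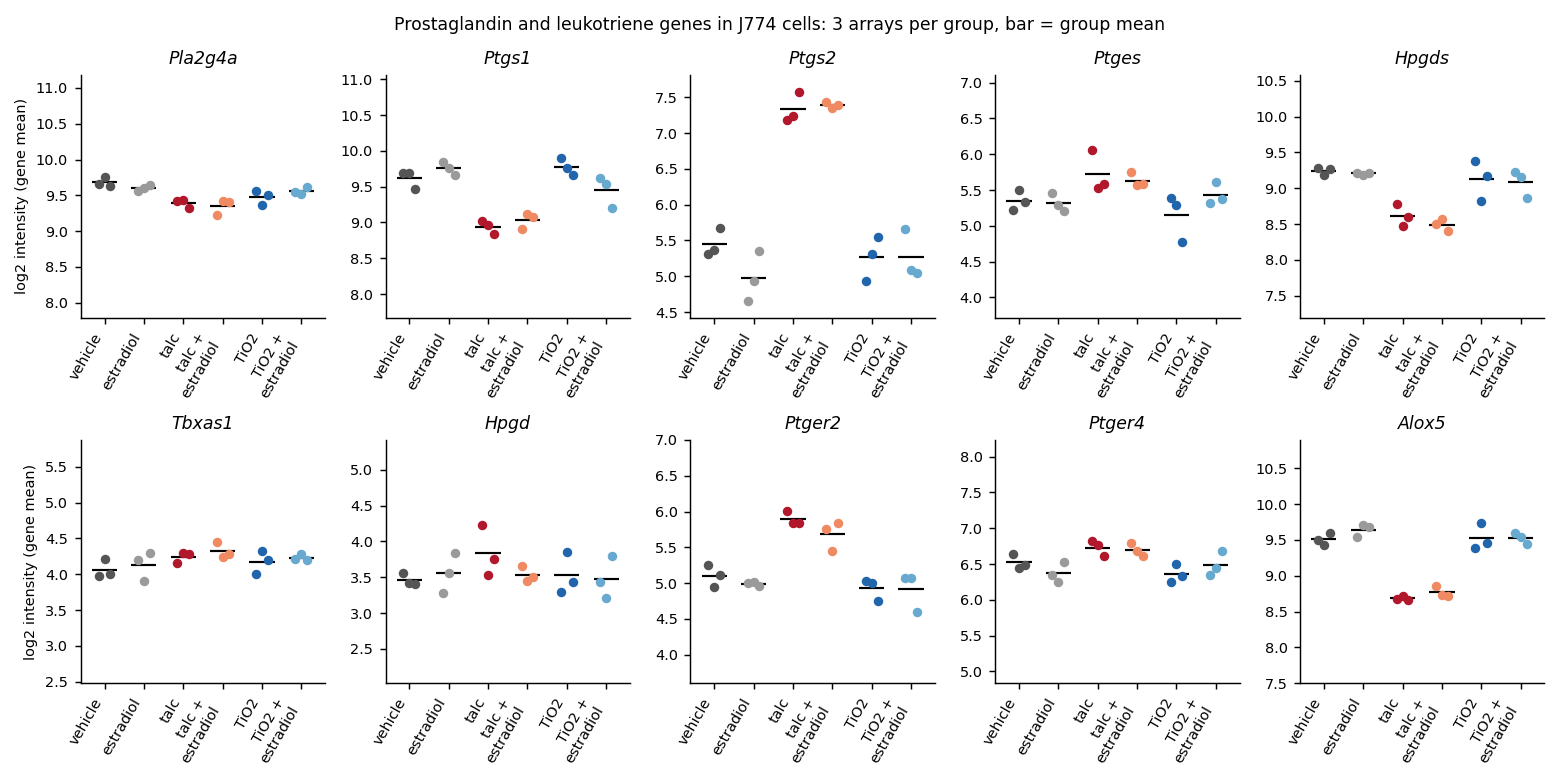
Log2 intensity of the 10 genes on each of the 18 arrays, by treatment; points are arrays, bars are means of 3, and every panel spans the same number of log2 units. Ptgs2 and Ptger2 are higher, and Ptgs1, Hpgds and Alox5 lower, in both talc groups than in the controls of the same arm.

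Upstream of the cyclooxygenases, Pla2g4a (chromosome 1, 149829618 to 149961290), which releases arachidonic acid, did not pass. It was at 9.66, 9.75 and 9.63 in vehicle arrays and at 9.42, 9.44 and 9.32 with talc, with no overlap, and the log2 change was -0.29 ± 0.09 (adjusted p = 0.0608). In the estradiol arm it was -0.25 ± 0.09 (adjusted p = 0.112), again without overlap. The call depended on the variance and the filter: with genes above the median level only, the adjusted p was 0.0167 and 0.0361, and without TiO2 replicate 2, which enters only the spread here, it was 0.0469 for talc against vehicle. The TiO2 arrays also lay below vehicle without overlap, and talc against TiO2 was -0.08 ± 0.09 (adjusted p = 0.656). With estradiol, TiO2 overlapped its control, and talc against TiO2 was -0.21 ± 0.09 (adjusted p = 0.178).

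Hpgds (chromosome 6, 65117293 to 65144981), the hematopoietic prostaglandin D2 synthase, was at 9.28, 9.19 and 9.26 in vehicle arrays and at 8.78, 8.47 and 8.60 with talc. It was at 9.22, 9.19 and 9.22 with estradiol and at 8.50, 8.57 and 8.40 with talc plus estradiol. The groups did not overlap in either arm, and the log2 changes were -0.62 ± 0.13 (adjusted p = 0.0058) and -0.72 ± 0.13 (adjusted p = 0.00274).

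Ptges (chromosome 2, 30889471 to 30931020), the inducible prostaglandin E2 synthase that works with Ptgs2, did not pass in either arm. Its levels were 5.23, 5.49 and 5.33 with vehicle and 6.06, 5.53 and 5.58 with talc, so the groups just missed overlapping. The log2 change was 0.37 ± 0.16 (adjusted p = 0.21), and 0.32 ± 0.16 (adjusted p = 0.315) in the estradiol arm, where the groups did not overlap either. With an offset of 16 added before log2, the change without estradiol was 0.32 and passed (adjusted p = 0.0316).

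Tbxas1 (chromosome 6, 38864159 to 39084590), the thromboxane synthase, stood at percentile 38.8 by signal. It moved by 0.18 ± 0.12 log2 units (adjusted p = 0.456) and 0.19 ± 0.12 (adjusted p = 0.421), with overlapping groups. Hpgd (chromosome 8, 56294552 to 56321046), which inactivates prostaglandins, had the lowest signal of the 10, at percentile 22.7. Its log2 change was 0.38 ± 0.19 (adjusted p = 0.299) without estradiol and -0.02 ± 0.19 (adjusted p = 0.971) with it.

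Of the Gs-coupled prostaglandin E2 receptor genes, Ptger2 (chromosome 14, 44988111 to 45003820) was at 5.26, 4.94 and 5.12 in vehicle arrays and at 6.002, 5.84 and 5.84 with talc. It was at 5.0045, 5.01 and 4.96 with estradiol and at 5.76, 5.45 and 5.84 with talc plus estradiol. The talc arrays were higher in each arm without overlap, by 0.79 ± 0.14 (adjusted p = 0.00162) and 0.69 ± 0.14 (adjusted p = 0.00588). With the median in place of the mean of its 4 probe sets, the changes were 0.68 and 0.70 and did not pass (adjusted p = 0.054 and 0.0544). Ptger4 (chromosome 15, 5233399 to 5244187) was at 6.64, 6.45 and 6.49 with vehicle and at 6.82, 6.76 and 6.61 with talc, which overlap. Its log2 change was 0.20 ± 0.12 (adjusted p = 0.374), and 0.32 ± 0.12 (adjusted p = 0.112) in the estradiol arm, where the groups did not overlap. In that arm it passed among genes above the median level (adjusted p = 0.0403) and with the offset (adjusted p = 0.0251).

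Alox5 (chromosome 6, 116410071 to 116461178), the 5-lipoxygenase that starts leukotriene synthesis, was at 9.50, 9.43 and 9.60 in vehicle arrays. Talc arrays were at 8.68, 8.72 and 8.66. It was at 9.54, 9.70 and 9.69 with estradiol and at 8.86, 8.74 and 8.71 with talc plus estradiol. The highest talc-treated array, at 8.86, lay below the lowest of the 12 arrays without talc, at 9.39. The log2 changes were -0.83 ± 0.10 (adjusted p = 6.66e-05), a 1.78-fold lower level, and -0.88 ± 0.10 (adjusted p = 8.76e-05), a 1.84-fold lower level. Alox5, Ptgs1, Hpgds and Ptgs2 passed in both arms in 9 of 9 alternative treatments of the data and in 18 of 18 fits that left out an array.

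**Figure D2:**
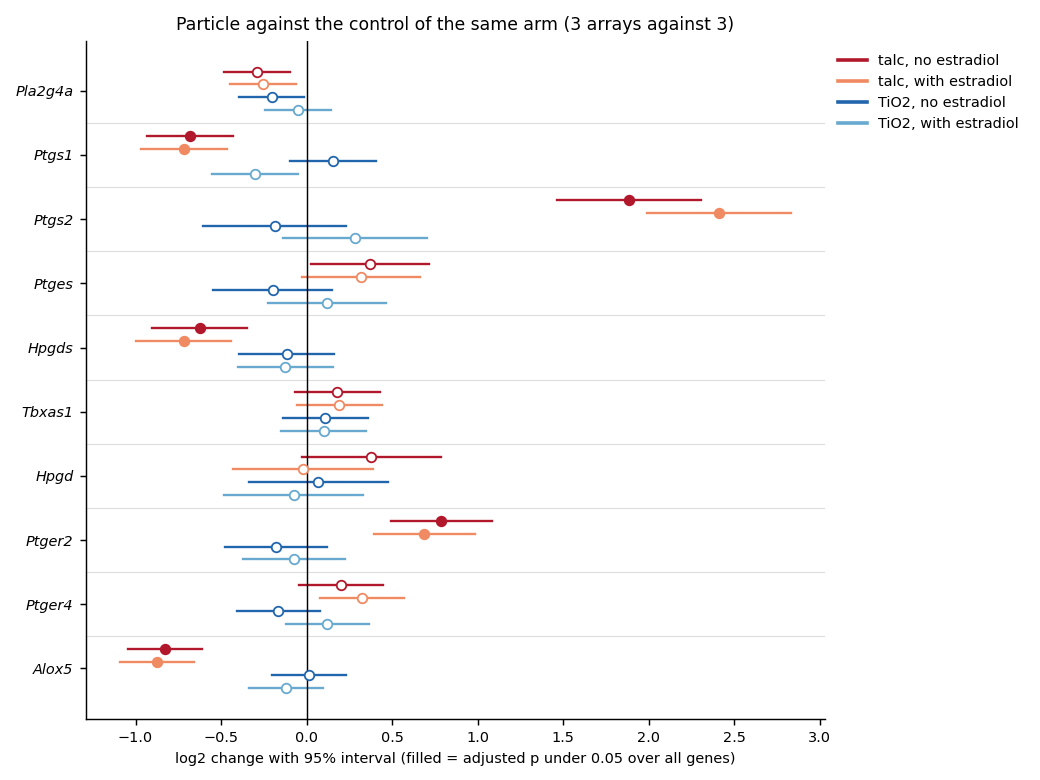
Log2 change of each gene with talc or TiO2 against the control of the same arm, with the 95% interval of the limma fit; filled points passed over all genes. The same 5 genes pass for talc in both arms, and all TiO2 points are open.

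The probe sets of a gene, which read separate stretches of its transcript, allowed the direction to be followed within genes. All 11 probe sets of Ptgs2 and all 4 of Ptger2 were higher with talc in both arms. All 15 of Ptgs1, all 8 of Hpgds and all 20 of Alox5 were lower in both arms. Probe sets of a gene share the same RNA and are not replicates.

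The size of the change varied between probe sets. For Ptgs2 it ran from 0.31 to 2.89 log2 units without estradiol, with a median of 2.46, and from 1.004 to 3.18 with estradiol, with a median of 2.73. Ptgs2 probe set 17218068 changed by 0.61 in the first comparison and by 2.68 in the second. On the talc arrays it read 6.03, 7.49 and 5.38, and on the talc plus estradiol arrays 7.47, 7.97 and 7.38. Its vehicle arrays read 5.56, 6.43 and 5.08, and its estradiol arrays 4.32, 4.955 and 5.50. The arms thus differed in level on talc-treated and on control arrays, with overlap in each. They also differed in the spread of this probe set on talc-treated arrays. For Alox5 the medians were -0.90 and -0.86, and for Ptgs1 -0.63 and -0.70.

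Genes that did not pass had probe sets on both sides of 0. Pla2g4a had 21 of 23 lower in each arm, and Ptger4 had 8 of 10 higher in each. Ptges had 6 of 9 higher in each, and its brightest probe set changed by 0.78 without estradiol and by -0.41 with it. Tbxas1 had 15 of 22 higher in each arm, with the brightest at -0.17 and -0.21. Hpgd had 8 of 9 higher without estradiol and 4 of 9 with it.

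**Figure D3:**
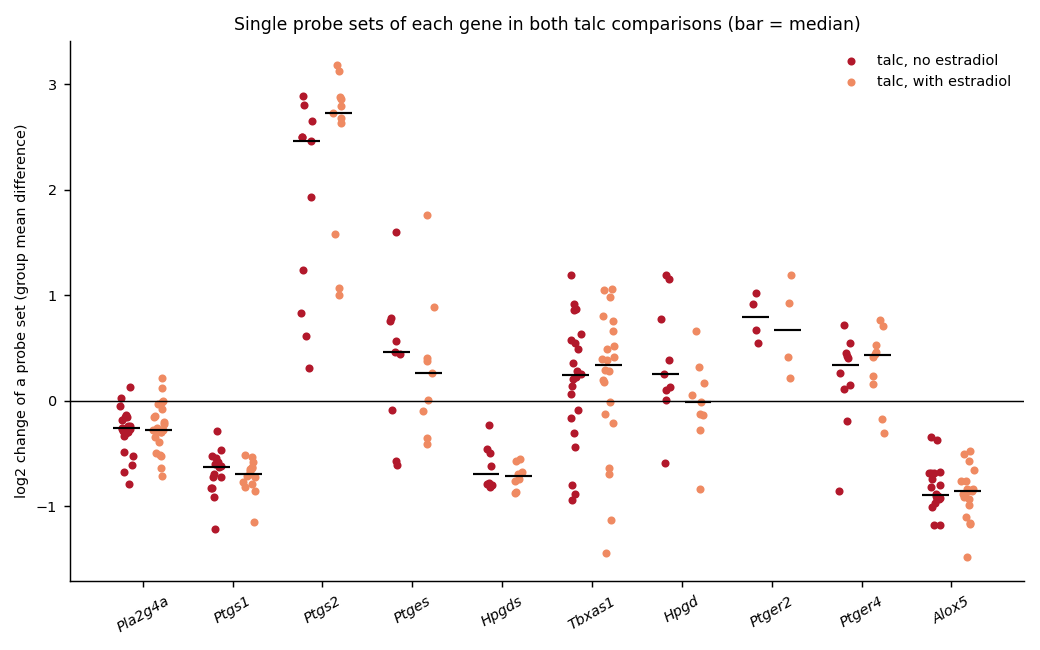
Log2 change of every probe set of each gene with talc against vehicle and with talc plus estradiol against estradiol; points are probe sets and bars their medians. Probe sets of Ptgs2, Ptger2, Ptgs1, Hpgds and Alox5 lie on a single side of 0, and those of the other genes on both.

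Titanium dioxide, given at the same mass per well, moved none of the 10 genes past the threshold in either arm. In all, 0% of genes passed for TiO2 against vehicle and 0.00433%, a single gene, for TiO2 plus estradiol against estradiol. At an unadjusted p under 0.05, 1886 and 2059 genes were counted, among them 1 of the 10 in each comparison. That gene was Pla2g4a without estradiol, with a change of -0.20 ± 0.09 (adjusted p = 0.587). With estradiol it was Ptgs1, with -0.30 ± 0.12 (adjusted p = 0.507), and -0.18 (adjusted p = 0.831) without TiO2 plus estradiol replicate 3. The Ptgs2 change was -0.19 without estradiol (95% interval -0.61 to 0.23) and 0.29 with it (-0.14 to 0.71). For Alox5 the intervals were -0.20 to 0.23 and -0.33 to 0.10. These intervals lie apart from those of talc for both genes, and the difference itself was tested between the particles.

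With talc against TiO2, 9.96% of all genes passed, 4.61% higher and 5.35% lower, and 6 of the 10 genes passed, 3 in each direction. Ptgs2 was higher by 2.07 ± 0.20 (adjusted p = 1.17e-05), Ptger2 by 0.97 ± 0.14 (adjusted p = 0.000291) and Ptges by 0.57 ± 0.16 (adjusted p = 0.0351). Ptgs1 was lower, at -0.83 ± 0.12 (adjusted p = 0.000247), as were Alox5, at -0.84 ± 0.10 (adjusted p = 6.41e-05), and Hpgds, at -0.51 ± 0.13 (adjusted p = 0.0205). These comparisons share the talc arrays with those against vehicle and are not independent of them.

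The calls of Ptges and Hpgds depended on single arrays and on how probe sets were combined. Ptges no longer passed without talc replicate 1 (0.40, adjusted p = 0.172), talc replicate 3 (0.64, adjusted p = 0.0539) or TiO2 replicate 3 (0.38, adjusted p = 0.162). It also failed by the brightest probe set (adjusted p = 0.412), by the median (adjusted p = 0.198) and with the compared arrays fitted alone (adjusted p = 0.153). Hpgds no longer passed without talc replicate 2 (adjusted p = 0.0892), talc replicate 3 (adjusted p = 0.0685), TiO2 replicate 1 (adjusted p = 0.0972) or TiO2 replicate 3 (adjusted p = 0.0626). By the median of its probe sets Hpgds was at -0.29 (adjusted p = 0.319), and with the compared arrays alone it did not pass (adjusted p = 0.123). Ptger2 did not pass by its brightest probe set (0.56, adjusted p = 0.161). Ptger4 was at 0.37 ± 0.12 (adjusted p = 0.0553), with no overlap, and passed in 4 of 9 alternatives and without TiO2 replicate 2 (adjusted p = 0.0435) or TiO2 plus estradiol replicate 3 (adjusted p = 0.0385). Ptger4 was at -0.13 by its brightest probe set (adjusted p = 0.643).

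With both particles in the presence of estradiol, 9.53% of all genes passed, 6.66% higher and 2.87% lower, and 5 of the 10 genes passed. Ptgs2 was higher with talc by 2.13 ± 0.20 (adjusted p = 1.24e-05) and Ptger2 by 0.76 ± 0.14 (adjusted p = 0.00268). Alox5 was lower, at -0.76 ± 0.10 (adjusted p = 0.000293), as was Hpgds, at -0.59 ± 0.13 (adjusted p = 0.00871). The Ptgs1 difference of -0.42 ± 0.12 (adjusted p = 0.0354) was lost without any single array of talc plus estradiol (adjusted p = 0.136, 0.0531 and 0.0796 for replicates 1, 2 and 3). It was also lost without TiO2 plus estradiol replicate 1 or 2 (adjusted p = 0.135 and 0.111), and by the brightest or median probe set (adjusted p = 0.0526 and 0.0533). With the compared arrays fitted alone, Ptgs1, Ptger2 and Hpgds did not pass (adjusted p = 0.141, 0.0513 and 0.0502), nor did Ptger2 by the median of its probe sets (adjusted p = 0.0547).

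Estradiol moved none of the 10 genes past the threshold, alone or with either particle. Of all genes 0% passed for estradiol against vehicle, 0% for talc plus estradiol against talc, and 0.00866% for TiO2 plus estradiol against TiO2. At an unadjusted p under 0.05 these held 1124, 1521 and 3012 genes, with 1, 0 and 1 of the 10. Ptgs2 was at -0.47 ± 0.20 with estradiol alone (adjusted p = 0.99), and its groups overlapped. Against talc, adding estradiol gave a Ptgs2 difference of 0.06 (95% interval -0.36 to 0.48). Ptgs1 differed by -0.32 ± 0.12 between TiO2 plus estradiol and TiO2 (adjusted p = 0.284), and by -0.19 (adjusted p = 0.547) without TiO2 plus estradiol replicate 3.

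Whether estradiol altered the particle effect was read from the interactions, for which 0% of all genes passed with talc and 0% with TiO2. At an unadjusted p under 0.05 there were 1460 and 1860 genes, with 0 and 1 of the 10. The talc effect on Ptgs2 was larger with estradiol by 0.53 ± 0.28 log2 units (95% interval -0.07 to 1.12, adjusted p = 0.818) and did not pass. For TiO2, the Ptgs1 interaction was -0.45 ± 0.17 (adjusted p = 0.524), and -0.33 (adjusted p = 0.631) without TiO2 plus estradiol replicate 3.

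**Figure D4:**
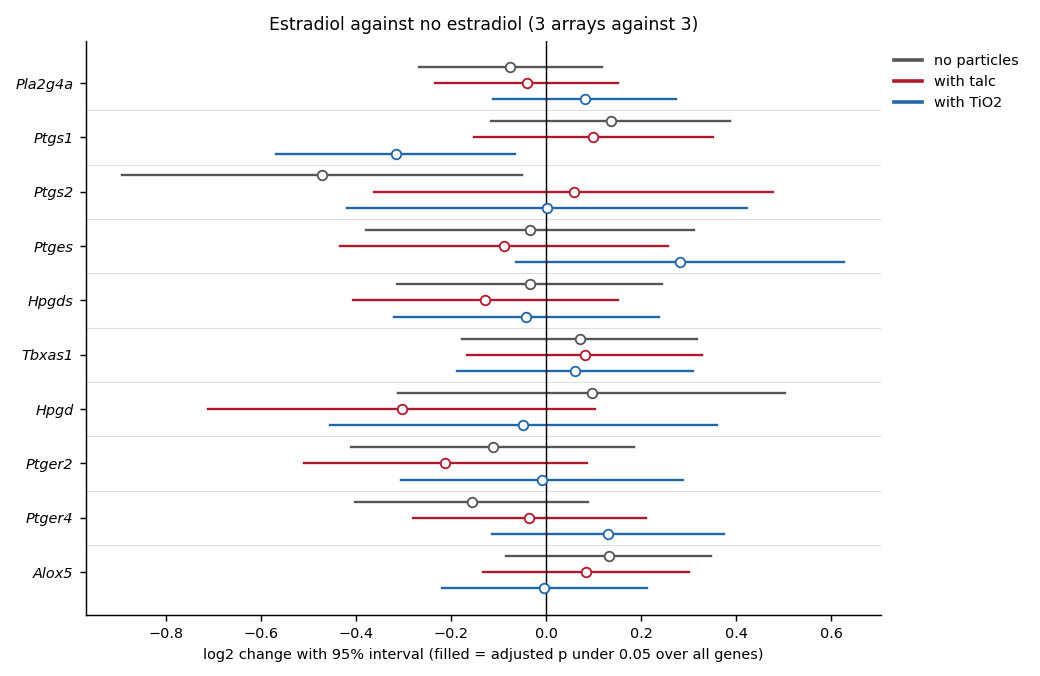
Log2 change of each gene with estradiol in cells without particles, with talc and with TiO2, with 95% intervals of the limma fit. All points are open, since none passed over all genes; the intervals of Ptgs2 without particles and of Ptgs1 with TiO2 lie below 0, and the others include 0.

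Further genes of the pathway were read from a list of 67, of which 64 were measured. With talc against vehicle 3 passed higher and 7 lower, with a median change of 0.06 over the list, beside 3.94% and 4.52% of all genes. With talc plus estradiol against estradiol 4 passed higher and 3 lower, with a median of -0.04, beside 4.13% and 3% of all genes. Genes passing in both numbered 2 higher, Ptgir and Nr4a2, and 2 lower, Abcc4 and Cysltr1. None passed for TiO2 against its controls, for estradiol, or for the interactions.

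Among 8 measured leukotriene enzymes, Alox5ap and Ltc4s passed lower with talc against vehicle and none passed in the estradiol arm. Alox5ap, the membrane partner that presents arachidonic acid to 5-lipoxygenase, changed by -0.34 ± 0.08 (adjusted p = 0.0165) and by -0.24 ± 0.08 (adjusted p = 0.0989). The first call was lost without vehicle replicate 2 (adjusted p = 0.0764) or talc replicate 3 (adjusted p = 0.0774), by the brightest probe set (adjusted p = 0.11) and with the compared arrays alone (adjusted p = 0.0926). Ltc4s, the leukotriene C4 synthase, changed by -0.62 ± 0.18 (adjusted p = 0.0369) with overlapping groups, and by -0.37 ± 0.18 (adjusted p = 0.267). It was lost without vehicle replicate 2 or 3 (adjusted p = 0.165 and 0.128) or talc replicate 2 or 3 (adjusted p = 0.174 and 0.0862). Ltc4s was at -0.31 by its brightest probe set (adjusted p = 0.534), and with the compared arrays alone it did not pass (adjusted p = 0.134).

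Of 7 leukotriene and oxylipin receptors, Cysltr1, a receptor for cysteinyl leukotrienes, passed lower in both arms. Its mean was 8.08 ± 0.15 in vehicle arrays and 7.18 ± 0.07 with talc (SD, n = 3). It was 8.14 ± 0.12 with estradiol and 7.46 ± 0.16 with talc plus estradiol. The log2 changes were -0.90 ± 0.12 (adjusted p = 8.9e-05) and -0.68 ± 0.12 (adjusted p = 0.00148), without overlap, and passed in 9 of 9 alternatives and in 18 of 18 fits that left out an array.

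Of 7 further prostanoid receptors, Ptgir, the Gs-coupled prostacyclin receptor, passed higher. It rose from 8.84 ± 0.02 to 9.44 ± 0.06 with talc and from 8.96 ± 0.19 to 9.41 ± 0.07 in the estradiol arm (SD, n = 3), or by 0.61 ± 0.11 (adjusted p = 0.00182) and 0.45 ± 0.11 (adjusted p = 0.0165). The second call was lost without estradiol replicate 1 (adjusted p = 0.0941) or without talc plus estradiol replicate 1 (adjusted p = 0.0639) or 3 (adjusted p = 0.0731). It was also lost by the median of the probe sets, at 0.26 (adjusted p = 0.314), by the brightest, at 0.35 (adjusted p = 0.133), and with the compared arrays alone (adjusted p = 0.0888).

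Of 10 measured prostaglandin synthases, reductases and transporters, Abcc4, an efflux pump that exports prostaglandins, passed lower in both arms. Its changes were -0.64 (adjusted p = 0.000366) and -0.57 (adjusted p = 0.00155), and neither passed with the median of its probe sets (adjusted p = 0.0515 and 0.0861). Ptgr1, a reductase that inactivates leukotriene B4 and oxidised prostaglandins, passed without estradiol, at -0.70 (adjusted p = 0.00165; 0.0509 by its brightest probe set), and was at -0.41 (adjusted p = 0.0564) with it. Ptges2 and Ptges3, which have been described as further prostaglandin E2 synthases, passed higher in the estradiol arm, at 0.66 (adjusted p = 0.0218) and 0.39 (adjusted p = 0.0383). By its brightest probe set Ptges2 was at -0.0029 there (adjusted p = 0.997), and by their median at 0.32 (adjusted p = 0.51). Ptges2 did not pass without estradiol replicate 2 or 3, or without talc plus estradiol replicate 1, 2 or 3 (adjusted p = 0.0537 to 0.0983). Ptges3 did not pass without any estradiol array, talc replicate 2, or talc plus estradiol replicate 2 or 3 (adjusted p = 0.0505 to 0.158). Ptges3 was at 0.20 by its brightest probe set (adjusted p = 0.504), and it failed by the median (adjusted p = 0.189) and with the compared arrays alone (adjusted p = 0.109).

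Of 17 measured phospholipases and genes of precursor supply, Pla2g7 and Pla2g15 passed lower without estradiol and none passed with it. Pla2g7, which hydrolyses platelet-activating factor, changed by -0.64 (adjusted p = 0.00439) and did not pass by its brightest probe set or by their median (adjusted p = 0.489 and 0.197). The lower Pla2g7 level was not particular to talc: means were 5.27 with vehicle, 4.63 with talc, 4.69 with TiO2 and 4.91 with estradiol alone. Its TiO2 arrays, at 4.51 to 4.83, lay below the vehicle arrays, at 5.23 to 5.31, though it did not pass for TiO2. Pla2g15, a lysosomal phospholipase, changed by -0.36 (adjusted p = 0.0245) and did not pass without vehicle replicate 1 or 3 or without any talc array (adjusted p = 0.0508 to 0.111), nor with the compared arrays alone (adjusted p = 0.0947). None of 7 other lipoxygenases and epoxide enzymes passed in either arm.

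Of 8 measured genes that cAMP raises downstream of Gs-coupled receptors, 2 passed higher without estradiol, and 1 higher and 1 lower with it. Nr4a2, an orphan nuclear receptor, was at 0.83 (adjusted p = 0.00313) and 0.55 (adjusted p = 0.0458). By its brightest probe set it went the other way in both, at -0.26 and -0.15, and did not pass (adjusted p = 0.632 and 0.812), so its direction depends on the probe sets used. The second call of Nr4a2 was kept in 8 of 18 fits that left out an array. It was lost without any estradiol array, talc replicate 1 or 2, talc plus estradiol replicate 2 or 3, vehicle replicate 1, TiO2 replicate 3 or TiO2 plus estradiol replicate 1 (adjusted p = 0.0509 to 0.171). It also failed by the median of the probe sets (adjusted p = 0.067) and with the compared arrays alone (adjusted p = 0.0638). Sik1, a cAMP-induced kinase, was at 0.66 (adjusted p = 0.00374) and 0.22 (adjusted p = 0.419). By its brightest probe set the first was 0.35 and did not pass (adjusted p = 0.227). The phosphodiesterase Pde4d passed lower with estradiol, at -0.48 (adjusted p = 0.0156). Pde4d was lost without estradiol replicate 2 (adjusted p = 0.0784) or talc plus estradiol replicate 1 (adjusted p = 0.0907). By its brightest probe set Pde4d was at -0.27 (adjusted p = 0.404), and it failed by the median (adjusted p = 0.289) and with the compared arrays alone (adjusted p = 0.0856).

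Set against TiO2, talc gave 7 of the 64 genes higher and 6 lower, beside 4.61% and 5.35% of all genes. With estradiol in both groups 5 were higher and 3 lower, beside 6.66% and 2.87% of all genes. Ptgir, Nr4a2, Abcc4 and Cysltr1 passed in these comparisons too, in the same directions, with the talc arrays shared. Leaving out single arrays, Cysltr1 and Ptgir passed in 18 of 18 fits of each. Abcc4, at -0.41 and -0.34, passed in 16 and 12 of 18. It was lost without talc replicate 2 or 3 in the first (adjusted p = 0.052 and 0.0607). In the second it was lost without any array of talc plus estradiol or of TiO2 plus estradiol (adjusted p = 0.05 to 0.152). Against TiO2, Abcc4 was at -0.25 by its brightest probe set (adjusted p = 0.373). Nr4a2, at 0.56 in each, passed in 14 of 18 fits of each. It was lost without talc replicate 2 or 3 or TiO2 replicate 1 or 3, and, with estradiol, without talc plus estradiol replicate 2 or 3 or TiO2 plus estradiol replicate 1 or 3 (adjusted p = 0.0513 to 0.167). Nr4a2 again went the other way by its brightest probe set, at -0.19 and -0.18.

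**Figure D5:**
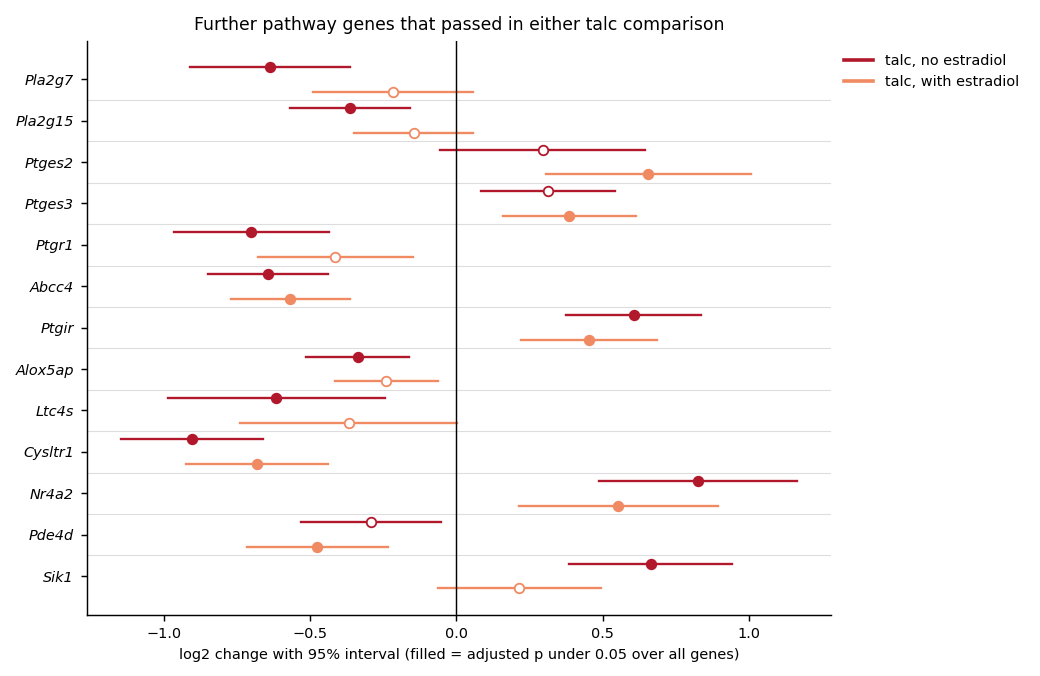
Log2 change with 95% interval of the 13 further pathway genes that passed in either talc comparison, without and with estradiol; filled points passed over all genes. Ptgir and Nr4a2 on the right and Abcc4 and Cysltr1 on the left are filled in both.

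Marker lists of cell types were read beside these changes, since in bulk RNA fewer cells of a type and less RNA per cell cannot be told apart. The mean log2 level of 7 macrophage markers was 9.70 to 9.74 on vehicle arrays and 9.40 to 9.54 on talc arrays, and 2 of the 7 passed. In the estradiol arm it was 9.61 to 9.65 and 9.54 to 9.61, which overlap, and 1 of the 7 passed. Marker calls here were counted in either direction, beside 8.46% and 7.13% of all genes that passed in these comparisons. The mean of the macrophage markers was 9.51 to 9.55 on TiO2 plus estradiol arrays, below the estradiol arrays. On TiO2 arrays it was 9.49 to 9.70, which overlaps vehicle. These marker means were not tested. The part of the marker shift with talc in the falls of Alox5, Hpgds and Ptgs1 was not tested. Of 5 mast cell markers, a cell type that also makes prostaglandin D2 and leukotrienes, none passed in either arm, and they stood at percentiles 7.87 to 38.7 by signal. None of 4 platelet and megakaryocyte markers passed either, though 1 of them, Pf4, stood at percentile 97.5. Of 4 epithelial, 3 measured lymphocyte and 4 granulocyte markers none passed, and of 5 fibroblast markers 1 passed in each arm.

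The genes whose values ran most nearly with Ptgs2 over the 18 arrays were Traf1, Lrrc59, Ptafr, Nop2 and Inppl1, with Pearson correlations of 0.979, 0.977, 0.977, 0.977 and 0.977. The arrays fall into those with talc and those without, and the correlations mostly read that division. Ptafr, the receptor for platelet-activating factor, another lipid mediator, was at a mean log2 level of 9.23 with vehicle and 10.05 with talc. Traf1, an adaptor of tumor necrosis factor receptors, was at 6.03 and 6.98.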

How the data were processed

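The deposited table holds an intensity on a linear scale for each probe set and array, from 1.458 to 17256. RMA is named in the submitters' processing notes; its version, the level of summary and the step back to a linear scale are not given in the sources used here. Raw array files were not used here.

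Log2 was taken first. Platform annotation named the probe sets, and 2247 symbols were updated through RefSeq synonyms. The value of a gene is the mean of its single-symbol probe sets: 233753 probe sets for 23102 genes. Probe sets with several symbols (5106) or none (30892) were left out, and no gene was filtered. A mean over probe sets averages out changes in exon use, and normalization between arrays would remove a shift common to all genes.

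The model was fitted in R 4.3.3 with limma 3.58.1 and the data.table package (1.17.8), as a mean per group over 18 arrays (12 residual and 4.57 prior degrees of freedom), in 11 contrasts, two-sided. Precision is limited by the number of arrays, the median standard error being 0.151 on the log2 scale, and 0.213 for interactions. The script was tested on simulated data.

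Groups came from the labels; replicate numbers were assigned in accession order. All 10 genes are named whether or not they passed. Of the further list, genes that passed in some contrast could be named. Likeness was ranked by Pearson correlation. The members and lists were chosen with earlier results of these data known. Alternatives were a level filter, an offset, the brightest or median probe set, quantile or median scaling, other variance models, a fit of the compared arrays alone, and leaving out each array. Promoter windows are from RefSeq (GRCm38.p6) and were found for all 10 genes.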

Additional observations from a re-analysis of the deposited data

How the results depend on the processing

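Over 9 alternatives and 18 fits that each left out an array, the count of the 10 genes that passed, 5 for talc against either control, went from 4 (median of the probe sets) to 7 (offset of 16) under the alternatives in each arm. Leaving out arrays gave 5 to 6 genes for talc against vehicle, 5 in each fit of talc plus estradiol against estradiol, 4 to 7 for talc against TiO2 and 4 to 5 for talc plus estradiol against TiO2 plus estradiol. That last count, 5, was 3 with the median of the probe sets and 2 with the compared arrays fitted alone, where fewer arrays inform the spread. In comparisons of TiO2 with its controls, of estradiol and of the interactions it was 0 under each alternative and in each fit that left out an array.

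The further pathway genes depended more on the settings. With the brightest probe set, 5 passed for talc against vehicle (10 with the mean), 2 for talc plus estradiol against estradiol (7), 5 for talc against TiO2 (13) and 5 for talc plus estradiol against TiO2 plus estradiol (8). With the median of the probe sets the last 3 were 2, 8 and 5, and with the compared arrays alone 3, 6 and 3. With an offset of 16, talc plus estradiol against estradiol gave 11. Leaving out arrays gave 7 to 11, 3 to 8, 8 to 14 and 4 to 9. By the brightest probe set, Nr4a2 turned to -0.26, -0.15, -0.19 and -0.18 in the same 4 comparisons. Ptges2 turned to -0.0029 in talc plus estradiol against estradiol and to -0.0568 in talc plus estradiol against TiO2 plus estradiol. The cause was not tested.

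Ptgs2 lay between 1.26 (offset) and 2.50 (brightest probe set) for talc against vehicle and between 1.89 and 2.80 in the estradiol arm. Over all genes, 1181 (median of the probe sets) to 3051 (offset) passed for talc against vehicle, against 1955. For talc plus estradiol against estradiol it was 851 to 2777, against 1647. No paired analysis was possible because the labels pair no arrays and the replicate numbers only name them.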
